A study of Mus musculus with 9 samples.

Results

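The genes described here encode the proteins of the cytosolic ribosome. They were taken as the genes whose symbol in the array's annotation is Rpl or Rps followed by a digit, or Rplp0 to Rplp2 or Rpsa, without the Rps6k kinases and without pseudogenes. Of 18193 genes named by a probe set with 1 symbol, 50 met this rule, 23 of the small subunit, 26 of the large subunit and Rps19bp1, which matches by its letters but encodes a protein that binds Rps19 and is no part of the ribosome. The brightest of a gene's probe sets by mean log2 intensity stood for the gene, and 26 members had 1 probe set while 24 had more, 106 probe sets in all. A further 31 ribosomal protein symbols, such as Rpl3, Rpl5, Rpl10 and Rplp1, stood only on probe sets that list several symbols and named no member.

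RNA was measured on 9 Affymetrix arrays from CD45.1+ LKS+ bone marrow cells of C57BL/6 mice aged 8 weeks. LKS+ cells lack markers of mature lineages, carry Kit and Sca-1, and hold the blood stem cells and early progenitors. The groups were 3 arrays from control mice, 3 from leukemic mice at day 7 and 3 from leukemic mice at day 14, and the series concerns what becomes of normal stem and progenitor cells as acute myeloid leukemia advances. The control arrays carry no time in their labels, no allele or drug is named for any group, and the labels give neither the leukemia's origin nor whether each biological replicate was a separate animal, so p-values measure the spread between these samples. Of 12 genes listed as markers of LKS+ cells, 11 had a named probe set, and all 11 lay above the 40th percentile of their array in every control and day 14 array. At day 14, 3 of the 11 passed against control by limma's test (27.3%), where 52.4% of all genes tested did. Cd48 was lower, at 700 ± 94.4 (SD, n = 3) against 1253 ± 91.1. Procr fell by 0.43 on the log2 scale (a call lost at the same 75th percentile, -0.30) and Gata2 rose by 0.43.

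A ribosome is built from ribosomal RNA and many proteins in a small subunit, which reads the mRNA, and a large subunit, which joins amino acids. Most of the mRNAs for these proteins begin with a run of pyrimidines, the terminal oligopyrimidine (TOP) tract, through which the mTORC1 kinase raises or lowers their translation without the amount of mRNA having to change. Blood stem cells are known for a low rate of protein synthesis, and inherited loss of a copy of several ribosomal protein genes causes Diamond-Blackfan anaemia.

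Pyrimidine tracts were more frequent at the members' annotated starts than over all genes, but most members had none there under any definition used here. Of the 50 members, 44 had a start in RefSeq's promoter table of mouse build GRCm38.p6. A tract was taken as C followed by at least 4 bases that are C or T, and away from the annotated start the base before that C had to be A or G. It began exactly at the annotated start in 8 of the 44 members (18.2%) against 3.01% of 27025 genes, and within 5 bases of it in 14 (31.8%) against 15.6%. Without the condition on the base before, 20 members (45.5%) and 21.2% of genes had such a run within 5 bases. The letters CCGGAAG, the core that ETS family factors such as GABP are known to bind, were present on either strand of the table's 300-base promoters in 21 members (47.7%) against 9.93% of genes, and AAGATGG, the core letters of YY1 sites, in 8 (18.2%) against 7.28%; matches that share letters count for both. A match is a description of letters, not of binding. The following members have a tract at their start and did not pass the test at day 14, and each window runs from 30 bases before the start to 20 bases from it, 5′ to 3′, with the tract and any CCGGAAG or its complement in capitals.
Rplp2 (chr7:141447621-141447670, + strand): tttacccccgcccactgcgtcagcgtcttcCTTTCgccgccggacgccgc
Rps10 (chr17:27635225-27635274, - strand): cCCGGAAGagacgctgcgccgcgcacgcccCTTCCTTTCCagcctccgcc
Rps18 (chr17:33955646-33955695, - strand): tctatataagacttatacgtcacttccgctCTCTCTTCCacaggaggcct
Rpl35 (chr2:39005112-39005161, - strand): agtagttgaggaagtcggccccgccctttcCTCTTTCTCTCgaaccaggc
Rpl38 (chr11:114668550-114668599, + strand): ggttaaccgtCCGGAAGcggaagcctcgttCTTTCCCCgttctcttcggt
Rps6 (chr4:86857348-86857397, - strand): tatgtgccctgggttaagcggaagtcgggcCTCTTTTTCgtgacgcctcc

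The next windows belong to 5 members whose probe sets changed at day 14. Rpl27a, Rpl14 and Rps27l have a tract at or near the start, the pyrimidine run of Rpl22l1, a relative of Rpl22, begins with T and so counts only without the condition on the base before, and Rpl7l1, a relative of Rpl7, has none within 5 bases either way.
Rpl27a (chr7:109519165-109519214, + strand): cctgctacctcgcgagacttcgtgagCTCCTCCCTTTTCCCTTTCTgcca
Rpl22l1 (chr3:28805478-28805527, + strand): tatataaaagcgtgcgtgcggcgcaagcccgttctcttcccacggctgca
Rpl7l1 (chr17:46782637-46782686, - strand): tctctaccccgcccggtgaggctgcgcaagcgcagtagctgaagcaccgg
Rps27l (chr9:66946056-66946105, + strand): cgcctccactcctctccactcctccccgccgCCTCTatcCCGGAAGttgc
Rpl14 (chr9:120571487-120571536, + strand): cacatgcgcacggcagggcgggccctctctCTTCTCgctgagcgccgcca

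Ribosomal protein transcripts were among the brightest on the arrays. Of the 50 members, 47 lay above the 40th percentile of their array in at least 3 arrays and were tested; Rps16 (2.91 to 4.39 over the 9 arrays), Rpl39l (5.78 to 8.90) and Rpl3l (5.70 to 9.79) did not and were not tested. The probe sets that list Rps16 with 2 further symbols were bright, with 7158 ± 150 (SD, n = 3) in control and 7380 ± 34.3 at day 14 on 1 of them. The low reading of Rps16 on its own probe set can therefore not be taken as the level of its transcript. Whether the low readings of Rpl39l and Rpl3l reflect their transcripts was not tested. Among 12652 genes tested, the median percentile of the 47 by mean log2 intensity was 99.7, and 35 lay above the 99th. The brightest was Rps29, a small protein of the 40S head, with 12015, 12131 and 12052 in control, 12052, 12044 and 12307 at day 7 and 11839, 11862 and 12052 at day 14. The 3 groups of Rps29 overlapped.

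Between arrays the bright members varied little. The median SD of log2 intensity between replicates of the 34 members at or above a mean log2 intensity of 12, an intensity of 4096, came to 0.0203 for control arrays, 0.0247 for those of day 7 and 0.0259 for those of day 14, against 0.09, 0.07 and 0.10 over all genes tested. The median log2 intensity of these 34 lay between 12.88 and 12.93 in control, between 12.93 and 12.96 at day 7 and between 12.92 and 12.95 at day 14. The highest value on any array was 13899, and compression of signals near that end of the scale was not tested.

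**Figure D1:**
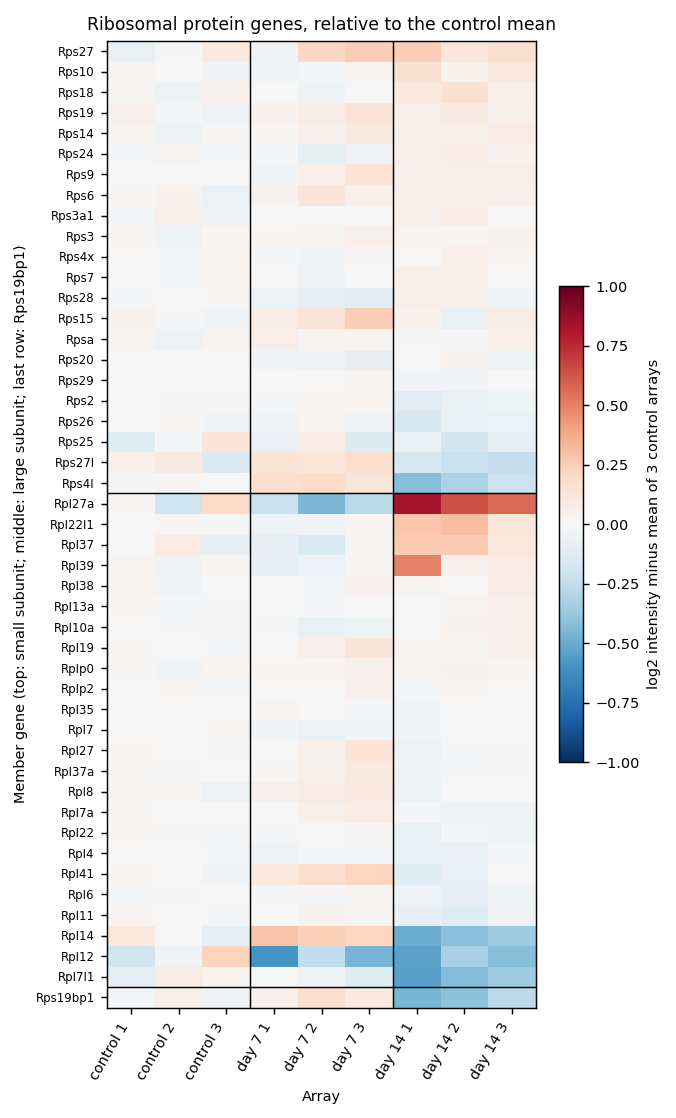
Log2 intensity of each of the 47 tested members (rows) in each of the 9 arrays (columns), minus the mean of the 3 control arrays; red is higher and blue lower, and horizontal lines divide small subunit, large subunit and Rps19bp1. Most rows stay near white in all 3 groups, and at day 14 Rpl27a stands highest and Rpl7l1, Rpl12, Rpl14, Rps4l and Rps19bp1 lowest.

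At day 7 of leukemia no ribosomal protein gene passed the test. With limma's moderated test and Benjamini-Hochberg adjustment over all genes, 0 of 47 members passed at an adjusted p below 0.05, where 3.34% of all genes tested did, and the lowest adjusted p of a member was 0.075. At an unadjusted p below 0.05 there were 5 of 47, against 19.8% of all genes, and in 13 of 47 the 3 day 7 arrays did not overlap the 3 control arrays, against 26.5%. In these bulk samples fewer cells of a type and less RNA per cell cannot be told apart. The median log2 change was 0.01 in the members and 0.01 over all genes tested, and the members ran from -0.43 (Rpl12) to 0.25 (Rpl14). For 37 of the 47 members the 95% interval of the day 7 change lay within 0.25 of 0 on the log2 scale. Rps15, whose protein sits in the head of the small subunit, read 5937, 5761 and 5702 in control and 6100, 6335 and 6880 at day 7, groups that did not overlap, with a log2 change of 0.15 (SE 0.07, limma adjusted p = 0.25). Rpl41, the shortest ribosomal protein, read 8812, 8718 and 8510 in control and 9287, 9712 and 10056 at day 7, again without overlap, with a log2 change of 0.16 (SE 0.06, limma adjusted p = 0.19). Other settings of the model gave 1 to 5 members at day 7, so the count of 0 depends on them. The shares of all genes called under those settings are not given here.

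At day 14, when 52.4% of all genes tested passed against control, 9 of 47 members did (19.1%), or 8 of 46 (17.4%) without Rps19bp1, which is no ribosomal protein. Higher were Rpl27a, Rpl22l1 and Rpl37, 3 of 47 where 18.3% of all genes were higher, and lower were Rpl7l1, Rpl12, Rpl14, Rps19bp1, Rps4l and Rps27l, 6 of 47 where 34.1% were lower. The median log2 change of the members was 0.01 against -0.06 over all genes. The median absolute change was 0.05 in the members and 0.24 over all genes. In 23 of 47 members the day 14 and control arrays did not overlap, against 58.1% of all genes tested. Across the 3 groups, limma's F-test called 10 of 47, against 54.8% of all genes.

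The 34 bright members had small changes at day 14. With the deposited scaling 0 of the 34 passed against control, their log2 changes ran from -0.10 (Rps26) to 0.10 (Rps10, Rps18), 0.935 to 1.07 fold, and the 95% interval of each of the 34 lay within 0.25 of 0. Of 68 other genes in the same range of intensity, 28 passed (41.2%), and their median absolute log2 change was 0.10 against 0.03 in the members. In the 3 ranges of lower intensity the other genes' median absolute change was 0.22 to 0.24, so changes in the brightest range were smaller for other genes too. Below an intensity of 4096 there were 13 members, and 9 of these passed (69.2%), where 50.1%, 56.9% and 58.7% of other genes passed in the ranges of mean log2 intensity below 8, from 8 to 10 and from 10 to 12. The limit of 4096 was set after the values were seen. Whether each bright probe set reads only its own gene was not tested.

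**Figure D2:**
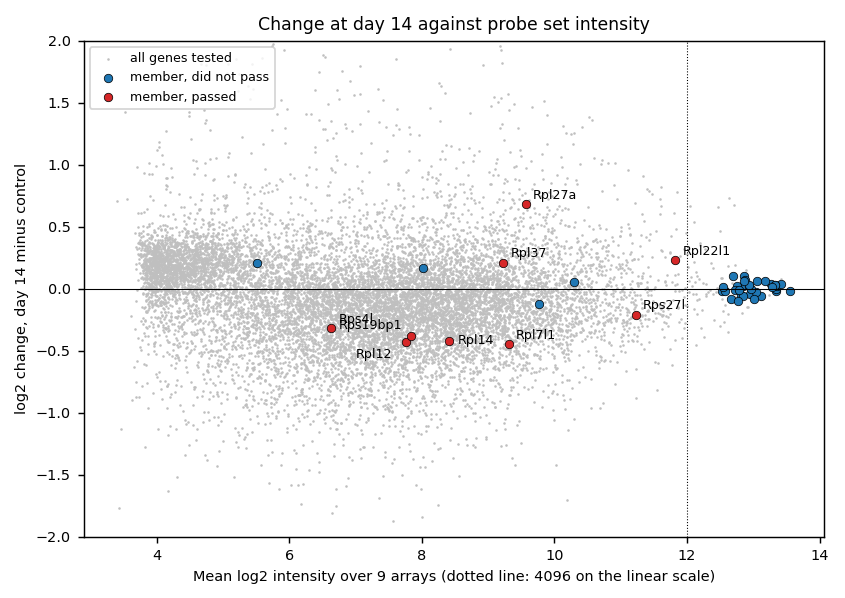
Log2 change from control to day 14 (vertical axis) against mean log2 intensity over the 9 arrays (horizontal axis) for all 12652 genes tested (grey; 33 lie beyond the plotted range of 2 either way), members that did not pass (blue) and members that passed at an adjusted p below 0.05 (red, named). The 34 members to the right of the dotted line, at an intensity of 4096, lie between -0.10 and 0.10, and the 9 that passed lie to its left.

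In the head of the small subunit, 0 of the 9 tested members passed at day 14, and their median log2 change was 0.02. Rps18 read 7332, 7031 and 7478 in control, 7264, 7062 and 7306 at day 7 and 7789, 8106 and 7533 at day 14, so that the day 14 arrays lay above all others while the change was 0.10 (SE 0.06, limma adjusted p = 0.17). Rps10 likewise read 6587, 6482 and 6343 in control and 7202, 6640 and 6925 at day 14, with a change of 0.10 (SE 0.06, limma adjusted p = 0.18). Rps18 and Rps10 both have the tract shown above at their start. Rps19, the gene most often mutated in Diamond-Blackfan anaemia, read 7534, 7235 and 7126 in control, 7534, 7688 and 7985 at day 7 and 7612, 7784 and 7525 at day 14. Its day 14 change of 0.07 (SE 0.06, limma adjusted p = 0.34) lay within overlapping groups.

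Of the 11 members of the small subunit body and platform, 0 passed either, with a median of 0.04. Rps6, the protein whose phosphorylation by S6 kinases is the usual readout of mTORC1, read 1249, 1264 and 1181 in control, 1264, 1346 and 1275 at day 7 and 1270, 1272 and 1270 at day 14. Its change at day 14 was 0.05 (95% interval -0.08 to 0.17). Rps14, the gene in the region lost in the 5q- syndrome, read 9191, 8759 and 9097 in control, 9102, 9293 and 9598 at day 7 and 9358, 9331 and 9548 at day 14, a change of 0.06 (95% interval -0.06 to 0.19). Rps26, near the mRNA exit, read 7185, 7282 and 7046 in control and 6431, 6802 and 6896 at day 14 without overlap, a change of -0.10 (SE 0.06, limma adjusted p = 0.17). Rpsa, the protein also known as the laminin receptor, read 10079, 9513 and 10046 in control and 9763, 9778 and 10224 at day 14, in overlapping groups. Rps27, a zinc finger protein of the platform, is named by a weak probe set that read 229, 238 and 258 in control, 235, 278 and 287 at day 7 and 286, 261 and 270 at day 14. Its day 14 change of 0.17 (SE 0.09, limma adjusted p = 0.12) became 0.26 (adjusted p = 0.037) after quantile normalization. A bright probe set that lists Rps27 with Rps27rt rose from 7528 ± 26.5 (SD, n = 3) in control to 8533 ± 250 at day 14, 0.18 on the log2 scale (SE 0.06, limma adjusted p = 0.034 over every probe set).

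Of 24 tested members of the large subunit 6 passed at day 14 (25%) and of 22 of the small subunit 2 (9.09%), against 52.4% of all genes. In the stalk, which recruits translation factors, Rplp0 read 7806, 7569 and 7823 in control and 7823, 7939 and 7823 at day 14, and Rplp2 read 10295, 10454 and 10161 in control and 10218, 10437 and 10329 at day 14. Neither differed beyond the spread between arrays, with changes of 0.02 and 0.00 (SE 0.05 each). Rpl11, which with Rpl5 and the 5S RNA binds Mdm2 and so ties ribosome assembly to p53, read 6648, 6552 and 6451 in control, 6557, 6719 and 6644 at day 7 and 6174, 6030 and 6387 at day 14. The day 14 arrays of Rpl11 lay below all others, and the change of -0.08 (SE 0.05, limma adjusted p = 0.24) did not pass. Of 6 tested members at the peptide exit tunnel 0 passed, among them Rpl4 at -0.05 (SE 0.05) and Rpl39 at 0.21 (SE 0.11), whose dim probe set read 44.7, 42.8 and 44.4 in control and 61.9, 45.3 and 46.5 at day 14. For Rpl39, day 14 replicate 1 alone stood clear of the control arrays by more than 10. Rpl38, which is known for its part in the translation of Hox mRNAs, read 9901, 9519 and 9756 in control and 9936, 9776 and 10212 at day 14, and the groups overlapped. Of the 11 tested members mutated in Diamond-Blackfan anaemia 0 passed at day 14, with a median of 0.02 and changes from -0.10 to 0.17.

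Of the 4 tested paralogs, which are close relatives of a core ribosomal protein, 1 rose and 3 fell at day 14. Over all genes tested, 18.3% were higher and 34.1% lower. All 4 lay below an intensity of 4096, where 69.2% of the 13 members passed. These 13 include the 4 paralogs, so that share is no separate comparison. Whether the calls are particular to paralogs was not tested. Rpl13a, a core protein of the large subunit that was listed with them, was at 0.03 (SE 0.05). Rpl22l1, which can replace Rpl22 in the large subunit, read 3442, 3477 and 3408 in control, 3361, 3355 and 3482 at day 7 and 4171, 4229 and 3735 at day 14. The 3 day 14 arrays lay above the other 6, and the rise was 0.23 on the log2 scale, 1.17 fold (SE 0.06, limma adjusted p = 0.012). Rpl22 itself read 8110, 7900 and 7939 in control, 7939, 7953 and 8034 at day 7 and 7593, 7905 and 7747 at day 14, a change of -0.04 (SE 0.05) that did not pass. On the log2 scale the probe set of Rpl22l1 minus that of Rpl22 lay between -1.24 and -1.18 in control and between -1.05 and -0.86 at day 14. That difference shows unequal change between the genes and no ratio of their amounts. A dimmer probe set of Rpl22 (1448398_s_at) fell from 1135 ± 52.6 (SD, n = 3) to 888 ± 24.2, by 0.35 on the log2 scale (SE 0.07, limma adjusted p = 0.0021 over every probe set), while 1416603_at, its remaining probe set, changed by -0.03 (SE 0.07).

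Rpl7l1, a nucleolar relative of Rpl7 that takes part in making the large subunit, read 669, 755 and 723 in control, 711, 695 and 658 at day 7 and 491, 529 and 556 at day 14. The 3 day 14 arrays were the lowest of the 9, and the fall was 0.734 fold, -0.45 on the log2 scale (SE 0.07, limma adjusted p = 6.1e-04). Of its 3 probe sets a further one fell by 0.40, and the dimmest was at -0.14 (limma adjusted p = 0.11 over every probe set). Rpl7 read 7065, 7076 and 7168 in control and 6952, 7065 and 7076 at day 14, in groups that overlapped.

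Rps27l, a relative of Rps27 known as a p53 target, read 2510, 2606 and 2227 in control, 2692, 2652 and 2728 at day 7 and 2169, 2098 and 2072 at day 14. The day 14 arrays lay below all others and the day 7 arrays above all others. The day 14 change against control was -0.21 (SE 0.07, limma adjusted p = 0.026), and its other probe sets fell too, by 0.37 and 0.24. The call was lost when the arrays were set to the same 75th percentile (-0.09, adjusted p = 0.32), and without control replicate 1 (adjusted p = 0.082), control replicate 2 (0.089), day 14 replicate 2 (0.06) or day 14 replicate 3 (0.067). Rps4l, a relative of Rps4x, read 102, 104 and 103 in control, 116, 117 and 112 at day 7 and 76.7, 82.8 and 88.8 at day 14. These 3 groups did not overlap, and the day 14 change was -0.32 (SE 0.07, limma adjusted p = 0.0025), whereas Rps4x was at 0.03 (SE 0.05). Rps19bp1, also called AROS, which binds Rps19 and is known as a regulator of Sirt1, read 239, 251 and 236 in control, 249, 274 and 259 at day 7 and 176, 182 and 202 at day 14. Its day 14 arrays were the lowest, with a change of -0.38 (SE 0.07, limma adjusted p = 0.0015).

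**Figure D3:**
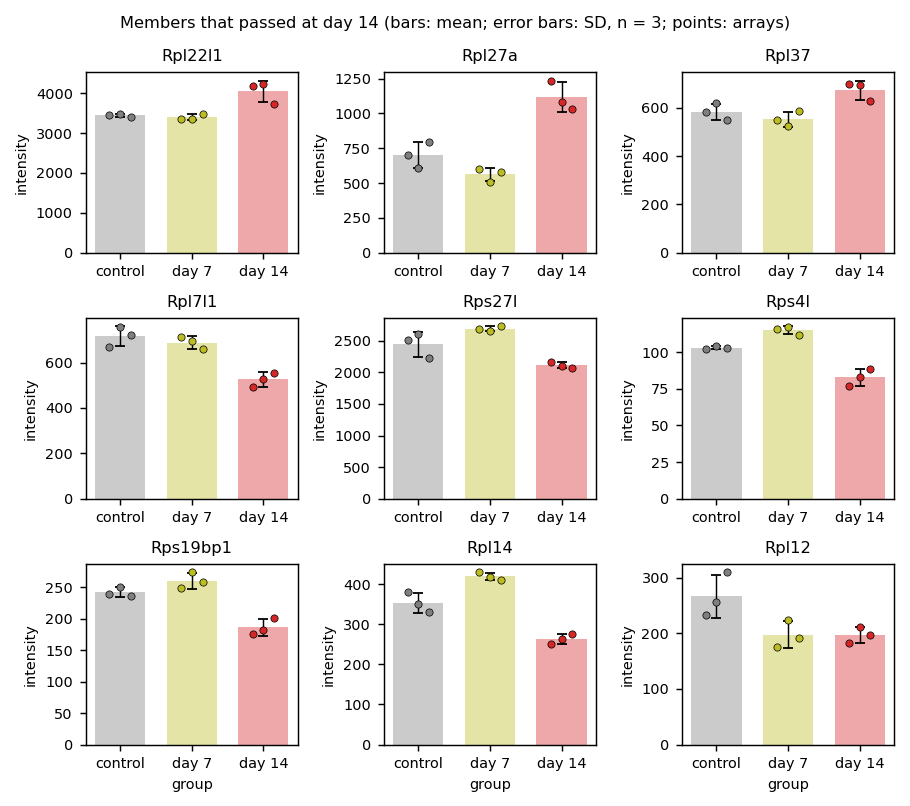
Deposited linear intensity (vertical axes, each from 0) in control, day 7 and day 14 for the 9 members that passed at day 14 against control; bars are means, error bars SD over 3 arrays and points arrays. Rpl22l1, Rpl27a and Rpl37 are highest at day 14, and in 5 of the other panels the 3 day 14 points lie below the 6 others, while Rpl12 is as low at day 7 as at day 14.

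The remaining 4 changed members, Rpl27a, Rpl37, Rpl12 and Rpl14, are core proteins of the large subunit whose reading came from a weak probe set. Rpl27a (1437729_at) read 703, 607 and 795 in control, 599, 510 and 580 at day 7 and 1236, 1082 and 1035 at day 14. The day 14 arrays lay above all others, a rise of 1.6 fold or 0.68 on the log2 scale (SE 0.11, limma adjusted p = 6.2e-04). The bright probe set that lists Rpl27a with 4 further symbols read 8005 ± 45.7 (SD, n = 3) in control and 8225 ± 194 at day 14, a change of 0.04 (SE 0.06). Rpl14 (1422128_at) read 380, 352 and 330 in control, 430, 418 and 411 at day 7 and 250, 264 and 276 at day 14, and its 3 groups did not overlap. Its fall was -0.42 (SE 0.07, limma adjusted p = 6.7e-04), while the 5 probe sets shared with its pseudogene Rpl14-ps1 were at 0.00 to 0.09.

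Rpl12, at the base of the stalk, read 234, 257 and 310 in control, 176, 224 and 192 at day 7 and 183, 212 and 197 at day 14 on 1435655_at. The day 7 and day 14 arrays all lay below the 3 control arrays, and the day 14 change was -0.43 (SE 0.12, limma adjusted p = 0.012), which array weights took to -0.29 (adjusted p = 0.072). Shared probe sets of Rpl12 were at 0.03 and 0.09 (SE 0.06 each). Rpl37 (1438291_x_at) read 581, 618 and 551 in control, 549, 523 and 586 at day 7 and 698, 693 and 626 at day 14, higher than in all others. Its change of 0.21 (SE 0.07, limma adjusted p = 0.038) lost its call without control replicate 1 (adjusted p = 0.085), control replicate 3 (0.12), day 7 replicate 1 (0.053), day 14 replicate 1 (0.11) or day 14 replicate 2 (0.10). The bright shared probe sets of Rpl37 were at 0.05 and -0.03, and a dim shared one (70.2 ± 4.62 in control and 82.2 ± 4.25 at day 14, SD, n = 3) rose by 0.23 (limma adjusted p = 0.035 over every probe set). Had the brightest probe set that lists a member alone or with other symbols stood for it, a choice made after the values were seen, none of these 4 would have passed (Rpl27a 0.04, Rpl14 0.02, Rpl12 0.09, Rpl37 -0.03), whereas Rpl22l1, Rpl7l1, Rps27l, Rps4l and Rps19bp1 are read from the same probe sets and passed, and Rps27 passed in addition (0.18, limma adjusted p = 0.02).

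Within a gene, weak and bright probe sets often disagreed. Of 98 tested probe sets of members, 4 were higher and 15 lower at day 14, against 44.4% of all probe sets in either direction, and 0 of the 58 above 4096 passed. Rps24 is an example, since its brightest probe set was at 0.06 (SE 0.06) and its dim 1455195_at fell from 396 ± 44.7 to 239 ± 10.9 (SD, n = 3), by 0.72 on the log2 scale (SE 0.10, limma adjusted p = 4.2e-04). Rps9 had a dim probe set (1426958_at) at 168 ± 17.8 in control, 99.3 ± 9.81 at day 7 and 93.9 ± 11.6 at day 14, and its fall by 0.76 at day 7 was among 2 that passed there (limma adjusted p = 0.017 over every probe set), against 3.39% of all probe sets at day 7. A further probe set of Rps9 (1434624_x_at) rose by 0.35 at day 14, and the brightest was at 0.06. The dim 1453466_at of Rps6 rose from 17.2 ± 1.43 to 32.6 ± 0.796, by 0.92, beside 0.05 on its brightest. For Rpl41 the dim probe sets fell by 0.65 and 0.50, and the bright ones were at -0.06 and -0.12. The annotation used here does not place these probe sets within a transcript, and which of them reads the coding mRNA was not tested.

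Day 14 against day 7 shares its day 14 arrays with the comparison above. It called 9 of 47 members, against 51% of all genes tested, and 24 of 47 did not overlap, against 60.3%. The higher members were Rpl27a (0.99, 1.98 fold, SE 0.11), Rpl37 (0.28, SE 0.07) and Rpl22l1 (0.25, SE 0.06), where 17.4% of all genes were higher and 33.6% lower. The lower ones were Rpl14 (-0.67), Rps19bp1 (-0.48), Rps4l (-0.48), Rpl7l1 (-0.39), Rps27l (-0.35) and Rpl41 (-0.22). Of these, 8 were called in both day 14 comparisons. Rpl41 was the only bright member called, with 9287, 9712 and 10056 at day 7 and 7980, 8250 and 8718 at day 14, and the call (limma adjusted p = 0.012) was lost at the same 75th percentile (-0.09, adjusted p = 0.25). Rpl12 differed little between the days, by 0.01 (95% interval -0.25 to 0.27).

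The sign of small changes depended on the scaling of the arrays. The 75th percentile of intensity was 115 to 119 in the day 14 arrays and 127 to 130 in the other 6. With the deposited scaling the median day 14 change was 0.01 in members and -0.06 over all genes, after quantile normalization it was -0.00 and -0.00, and with each array set to the same 75th percentile it was 0.13 and 0.06. Relative to all genes the members therefore stood at 0.07, -0.00 and 0.07. The number called against control went from 3 higher and 6 lower (33.3% of calls higher) to 4 and 6 (40%) after quantile normalization, where 48.8% of all genes passed (22% higher, 26.8% lower), and to 20 and 5 (80%) at the same 75th percentile, where 54.4% of all genes passed (31.2% higher, 23.2% lower). Against day 7 it called 21 of 47 there, 16 of them higher, where 55.1% of all genes passed. Of all genes called, 34.9%, 45.1% and 57.4% were higher under the 3 scalings. Of the 34 bright members, 14 were called higher at the same 75th percentile, with changes from 0.02 to 0.22, and 0 after quantile normalization. With the deposited scaling, 5 of the 34 were called lower when dim genes were not filtered out, and 2 higher and 1 lower with a trended robust prior. For these 2 settings the shares of all genes called are not given here. Rpl22l1, Rpl27a and Rpl37 were called higher and Rpl7l1, Rpl12, Rpl14, Rps4l and Rps19bp1 lower under all 3 scalings. As a share of the summed intensity of each array, the members took 6.05% to 6.15% in control, 6.06% to 6.22% at day 7 and 6.34% to 6.35% at day 14, and the day 14 shares lay above all others.

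**Figure D4:**
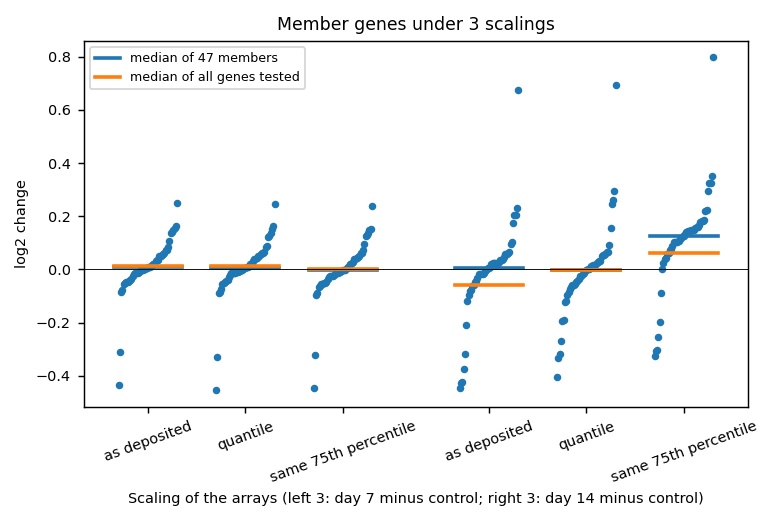
Log2 change of the 47 members (points, sorted) from control to day 7 (left 3 columns) and to day 14 (right 3 columns) under the deposited scaling, quantile normalization and a common 75th percentile; blue lines are the members' medians and orange lines those of all genes tested. At day 14 the members' median is 0.01, -0.00 and 0.13, and at day 7 the scalings nearly coincide.

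Other genes of translation are given for day 14 beside the same background of 18.3% higher and 34.1% lower over all genes; their difference from the ribosomal proteins was not tested. Of 76 tested genes for the mitochondrial ribosome, which makes some subunits of the respiratory chain, 67 fell and 0 rose, with a median of -0.48 (57 lower and 1 higher at the same 75th percentile). Mrps22 fell from 268 ± 35.9 (SD, n = 3) to 130 ± 13.0, by 1.04 on the log2 scale (SE 0.10, limma adjusted p = 3.7e-05). At day 7 the mitochondrial list had a median of 0.15, and 1 of 76 passed, upwards. Of 59 genes that make and assemble ribosomes in the nucleolus, 37 fell and 1 rose, with a median of -0.33 (28 lower and 5 higher at the same 75th percentile). Nop16, a nucleolar assembly protein, fell from 307 ± 34.3 to 182 ± 31.5, and Taf1d, a subunit of the RNA polymerase I factor SL1, was the 1 that rose, from 707 ± 59.8 to 995 ± 47.1. Rpf2, which brings the 5S particle with Rpl5 and Rpl11 into the large subunit, fell from 217 ± 12.5 to 125 ± 15.4, by 0.81 on the log2 scale (SE 0.09, limma adjusted p = 7.5e-05).

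Of 25 initiation factors 14 fell and 2 rose, with a median of -0.24 (7 lower and 5 higher at the same 75th percentile). The 2 that rose were Eif5, the GTPase activator of the initiation complex, from 2272 ± 29.7 (SD, n = 3) to 3319 ± 119, and the helicase Eif4a2, from 3234 in control (SD 100 over 3 arrays) to 3978 ± 179. The other TOP mRNAs, elongation factors and the like, had a median of 0.03, with 4 of 21 lower and 1 higher; at the same 75th percentile 0 were lower and 10 higher. Npm1, the nucleolar chaperone, fell by 0.25 (SE 0.06, limma adjusted p = 0.0084), a call lost at the same 75th percentile. Fau, the ribosomal protein gene outside the symbol rule that was measured, was at 0.09 (SE 0.07) and at 0.21, called, at the same 75th percentile.

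Of 22 genes for mTORC1 and for regulators of TOP mRNAs, 5 rose and 3 fell at day 14 with the deposited scaling. Among them Deptor, an inhibitor of mTOR, rose from 279 ± 22.6 (SD, n = 3) to 422 ± 54.0, and Pdcd4, an inhibitor of the helicase Eif4a that S6 kinase destabilises, rose from 1929 ± 74.8 to 2766 ± 101. Sesn1, a stress-induced protein that restrains mTORC1, fell from 1270 ± 170 to 869 ± 86.5, and the S6 kinase gene Rps6kb2 from 51.7 ± 1.76 to 39.5 ± 4.95. These 4 kept their direction and call under all 3 scalings. Of the 6 tested genes listed for the 5S particle and p53, 2 rose and 1 fell at day 14 (50%). Over all genes tested, 52.4% passed. Cdkn1a, the cell cycle inhibitor, rose from 780 ± 71.9 in control to 1264 ± 187 at day 7 and 1851 ± 193 at day 14. Mdm2 rose from 400 ± 19.7 to 518 ± 46.7 at day 14, and Rpf2 fell by 0.81 on the log2 scale.

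**Figure D5:**
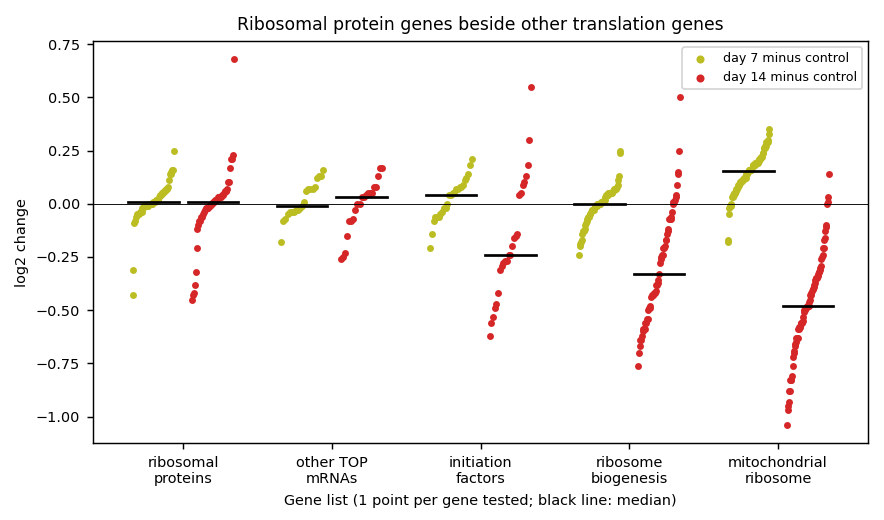
Log2 change from control at day 7 (olive) and day 14 (red) for each tested gene of 5 lists, with black lines at the medians, under the deposited scaling. At day 14 the medians are 0.01 for the 47 members, 0.03 for other TOP mRNAs, -0.24 for initiation factors, -0.33 for ribosome biogenesis and -0.48 for the mitochondrial ribosome.

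Some markers of other blood cells also moved at day 14. Over all genes tested, 18.3% were higher and 34.1% lower against control. The summed intensity of 7 megakaryocyte and platelet markers ran from 605 to 688 across the control arrays and from 1595 to 1875 across those of day 14, and that of 6 monocyte and macrophage markers 822 to 1666 and 1974 to 3158. The sum of 11 neutrophil and granule markers was 6273 to 7633 in control and 8299 to 10479 at day 14, that of 4 plasma cell markers 1568 to 1759 and 2099 to 2266, that of 6 B cell markers 246 to 260 and 329 to 426, that of 6 T and NK markers 755 to 870 and 774 to 822, and that of 8 erythroid markers 812 to 1645 and 933 to 1064. At day 7 the T and NK sum was 963 to 995, above both other groups. The megakaryocyte and platelet sum, 753 to 809, and the B cell sum, 297 to 362, also lay above control at day 7. The sums of the other blood cell lists overlapped control at day 7. Alas2, Slc4a1, Hba-a1, Lcn2, Cd3g and Cd3d lay below the 40th percentile in every array. Sums can hide opposite moves, as Nkg7 fell from 742 ± 63.2 (SD, n = 3) to 527 ± 51.6 while 3 of the 4 tested T and NK markers rose, Cd28 by 2.38, Bcl11b by 1.59 and Cd3e by 0.45 on the log2 scale. Of 10 tested neutrophil and granule markers 4 rose, Mpo and Prtn3 among them, and 2 fell, S100a8 by 0.99 and S100a9 by 0.75 (3 and 3 after quantile normalization, 6 and 1 at the same 75th percentile). Of 6 tested B cell markers 4 rose, while Cd79b, the brightest of them in control, fell from 154 ± 3.59 (SD, n = 3) to 103 ± 7.16. Most of the plasma cell sum was Xbp1, at 1468 ± 95.0 (SD, n = 3) in control and 1929 ± 148 at day 14. Jchain read 11.0 ± 9.04 in control, 96.5 ± 6.94 at day 7 and 70.9 ± 16.5 at day 14. Several listed markers were well above the floor in control LKS+ arrays, such as Mpo at 3535 ± 326 and Csf1r at 740 ± 253 (SD, n = 3). Whether the marker changes arose within LKS+ cells or from other blood cells was not tested. The part of either in the changes of the 9 members was not tested.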

How the data were processed

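The values deposited by the authors are linear, normalized intensities of probe sets on Affymetrix Mouse Genome 430 2.0 arrays. The design text gives a 2-cycle amplification of the RNA and names Microarray Analysis Software v5.0 for normalization. Among the values, 51.64% of 45037 probe sets (46.23% of the 106 probe sets of members) repeat a value exactly between arrays, which leaves that step in doubt, so the scaling was varied. Arrays carry no read depth, and their number limits the precision.

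Names came from the platform annotation, in which 34945 probe sets had 1 symbol, 932 several and 9160 none, and RefSeq changed 0 symbols. Values were raised to a floor of 5.81, the table's 20th percentile, and log2 was taken. The brightest probe set stood for a gene. Genes above the 40th percentile of their array (14.1 to 15.2) in at least 3 arrays were tested, 12652 of 18193. limma 3.58.1 in R 4.3.3 fitted 1 model to all 9 arrays without covariates, with two-sided moderated tests and Benjamini-Hochberg adjustment over all genes; a gene passed below 0.05. On simulated data, 14%, 74% and 96% of genes changed by 0.25, 0.5 and 1 on the log2 scale were recovered for day 14 against control among 12652 genes. The simulation changed only a small part of the genes, drawn from all intensities, whereas 52.4% passed in the data. Its adjusted cut was therefore stricter, and these shares do not give the sensitivity of the comparison itself or for bright members. Each array's group and replicate number came from its labels.

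The members and lists were chosen with earlier results of these data known. Named members were the 8 largest called changes per direction, the 5 brightest and 5 dimmest, up to 2 per direction of each list and a fixed set. Alternatives were quantile normalization, a common 75th percentile, no floor, an offset of 32, no filter or one at the 60th percentile, averaged probe sets per gene, plain probe sets preferred, a block for the replicate number, fits on the compared groups alone, a trended robust prior, array weights, leaving out each array and, chosen after seeing the data, the brightest probe set that lists the gene. Protein sequences were not used here.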

Additional observations from a re-analysis of the deposited data

Results flagged for a closer look

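In 9 of 47 members (19.1%) the changes from control at day 7 and day 14 differed, by limma's test of day 14 against day 7 (adjusted p below 0.05). Of all genes tested, 51% passed that test, and in 60.3% the arrays of the 2 days did not overlap. The differences, on the log2 scale and with 3 arrays per group that did not overlap in any of the 9, were 0.99 for Rpl27a, 0.28 for Rpl37, 0.25 for Rpl22l1, -0.67 for Rpl14, -0.48 for Rps19bp1, -0.48 for Rps4l, -0.39 for Rpl7l1, -0.35 for Rps27l and -0.22 for Rpl41. Groups of 3 arrays are too small for a test of single outlying arrays.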

How the results depend on the processing

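Of 22 alternatives, those that moved the number of members called at day 7 from 0 gave 2 with an offset of 32, 1 with the mean of probe sets, 3 with plain probe sets preferred, 3 with a trended robust prior and 5 with array weights. At the same 75th percentile 25 members were called at day 14 against control and 21 against day 7, with medians of 0.13 and 0.12. Of all genes tested, 54.4% and 55.1% passed in these comparisons. The F-test called 20 members at that percentile. Day 14 against day 7 gave 19 without a filter and 16 with a trended robust prior. The shares of all genes called are not given here for that F-test, these last settings or the day 7 settings. Those counts therefore show no change particular to the members. With plain probe sets preferred the median at day 14 was -0.02. Leaving out each array gave medians of -0.03 to -0.00 for day 14 against day 7, the lowest without day 7 replicate 1, and 7 to 9 members called against control, 9 to 10 against day 7 and 0 at day 7. Rpl12 became 0.09, Rpl14 0.02 (0.05 against day 7) and Rpl37 -0.03 (-0.03 against day 7) on the brightest probe set that lists them. Rps24 became -0.72 (-0.35 against day 7) with plain probe sets preferred, and Rps6 0.36 against day 7 with the mean of probe sets. These settings read other probe sets by construction; for the other settings the cause was not tested. Rpl22l1, Rpl7l1, Rps4l and Rps19bp1 kept direction and call against control under all 22 alternatives. Values of named members called under neither setting changed sign 85 times. Replicate numbers did not pair the arrays, as correlations of same-numbered deviations ran from -0.19 to 0.12; with the replicate number as a block, 0 members were called at day 7, 8 at day 14 against control (Rpl37 lost, adjusted p = 0.062) and 9 against day 7. Small changes of bright members depend on the scaling, and probe sets near the floor limit what dim members show.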

Other observations

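Probe sets that list a ribosomal protein symbol together with other symbols named no member. There were 110 of them, of which 105 were tested. At day 7 against control 0 passed, and at day 14 8 were higher and 5 lower, against 44.4% of all probe sets in either direction, with a median log2 change of 0.02. Of the 74 above an intensity of 4096, 1 was higher and 0 lower at day 14, and of the 31 dimmer ones 7 were higher and 5 lower. The bright one that rose was the probe set that lists Rps27 with Rps27rt.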
